A study of Rattus norvegicus with 15 samples.

Results

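Beating colonies grown from rat cardiac stem cells (iCM) were compared with cardiomyocytes of the adult rat heart (aCM) over all genes of 1 count table. The samples were chosen by their labels, 3 libraries of each kind, which makes 6 of the 15 samples in the series, and 17242 of 26276 genes had enough counts to be tested. The iCM libraries came from spontaneously contracting colonies derived from clonogenic cardiac stem cells, and the aCM libraries from cells freshly isolated from hearts at 12 weeks of age. Cardiomyocytes isolated at postnatal day 1 to 2 (nCM, 3 libraries) are used beside them where a value for an immature heart cell helps. All animals and cells were of the Wistar strain, with no genetic change named. The labels give neither an age or culture time for the colonies nor a purification step. They do not tie the libraries of iCM, nCM or aCM to separate animals or cultures. The p-values thus reflect only how far the libraries of the fit vary, those of undifferentiated stem cells included, and that variation may be technical.

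After birth, heart muscle cells stop dividing, exchange fetal for adult isoforms of contractile proteins, and enlarge the membrane systems that release and take back calcium at every beat. They also turn from glucose and lactate to fatty acids and fill with mitochondria. Cells made in culture are usually compared with adult cells because they can beat long before these changes are complete.

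The depth was 44.2 to 48.5 M counts in the iCM libraries and 20.7 to 26.0 M in the aCM libraries, so low genes are measured with less precision in aCM, where 3 counts equal 0.134 to 0.166 CPM (a count as its share of the library total, scaled by TMM). Both groups carried the defining transcripts of heart muscle. Tnnt2, cardiac troponin T, took 0.0819% of the counts in iCM and 0.462% in aCM. The iCM libraries also contained globin transcripts, up to 10030 CPM for Hba2, and iCM replicate 1 stood apart from replicates 2 and 3. Of 9674 genes that reached 10 CPM in some iCM library, 39 were at least 4-fold lower in replicate 1 than in both others, among them 10 genes of the skeletal muscle list, while 0 were 4-fold higher.

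Genes that were higher in iCM numbered 5698, or 33% of those tested (edgeR quasi-likelihood test, Benjamini-Hochberg adjusted p below 0.05). Genes that were lower numbered 5190, or 30.1%. These shares are the background for every count of list members below. Under scaling by total counts alone, which shifts the median of all genes by 0.28 on the log2 scale, the split was 7334 higher and 3746 lower. Differences larger than 2-fold were called for 1836 genes higher in iCM (10.6%) and 2019 lower (11.7%), and 184 and 190 of these were at least 16-fold. Hemoglobins, the fetal troponin Tnni1 and the locus of Mir675 led the higher genes, and transcripts of adult heart muscle led the lower ones.

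**Figure D1:**
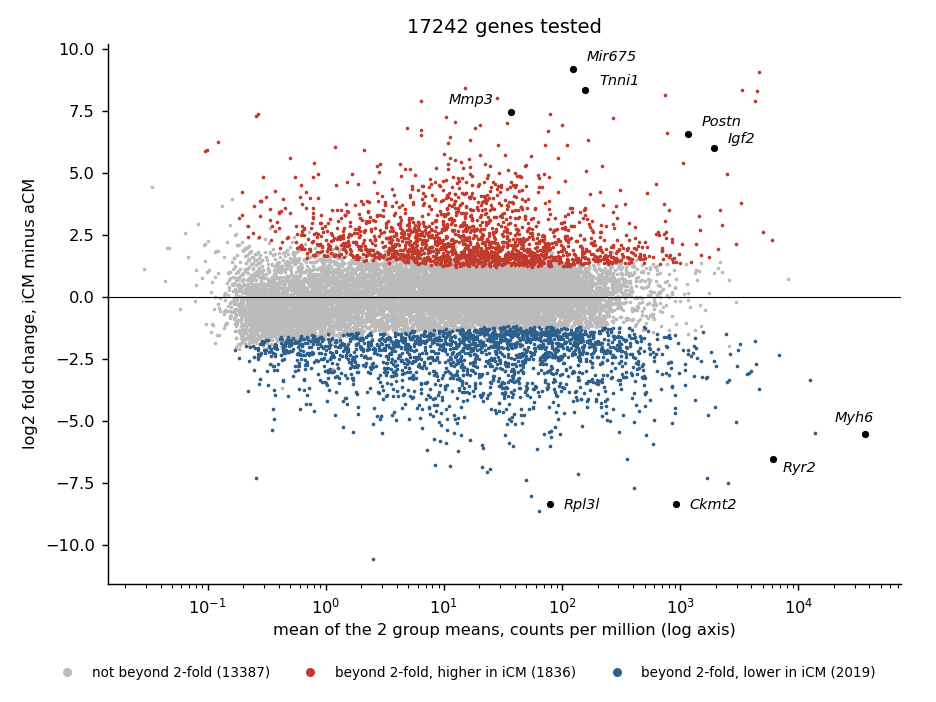
Each point is 1 of 17242 genes. The horizontal axis gives the mean of the 2 group means in CPM on a log axis and the vertical axis the log2 fold change, iCM minus aCM. Red points are higher and blue points lower in iCM beyond 2-fold (1836 and 2019 genes), and the named genes in black lie at both ends of the range.

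Among genes with at least 10 CPM in the higher group and no overlap between the groups, the largest fall was that of Tuba8, an alpha-tubulin, which stood at 0.319, 0.311 and 0.306 CPM in iCM and in aCM at 112, 159 and 108 CPM. Rpl3l, the muscle-specific copy of a ribosomal protein, stood at 0.34, 0.641 and 0.428 CPM against 144, 192 and 136 CPM. Ckmt2, the mitochondrial creatine kinase of striated muscle, which hands phosphate from ATP to creatine, stood at 3.1, 5.61 and 8.16 CPM against 1737, 2033 and 1785 CPM. All 3 genes were separated between the groups by 2 orders of magnitude or more, with fitted differences of -8.65 ± 0.24, -8.37 ± 0.42 and -8.36 ± 0.63 (log2 ± SE, edgeR adjusted p = 8.67e-11, 3.68e-09 and 1.06e-07). Other genes among the 12 with the largest fall were Hrc, Myom2, Cmya5, Scn4b and Kcnd2, each described with its group below, the ubiquitous-type mitochondrial creatine kinase Ckmt1b (-7.38 ± 0.21), the interferon-induced GTPase Gbp1 (-8.01 ± 0.33), Asb10 (-6.88 ± 0.32) and Apol11a-ps1 (-6.94 ± 0.41).

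At the other end, Tnni1, the slow skeletal troponin I that the fetal heart uses, stood at 307, 295 and 343 CPM in iCM and in aCM at 0.777, 1.57 and 0.499 CPM, a 321-fold difference (log2 8.33 ± 0.52, edgeR adjusted p = 2.15e-08). The row named Mir675 stood at 254, 250 and 234 CPM in iCM against 0.104, 0.716 and 0.388 CPM in aCM (9.20 ± 0.63, adjusted p = 4.91e-08). The aCM libraries held 2, 16 and 7 counts of this row, which makes the size of that fold imprecise. In the neonatal cells the same row averaged 249 CPM, and iCM minus nCM was -0.01 ± 0.39. The miRNA is known to be processed from H19, an imprinted RNA of the fetus. The libraries were made from ribosome-depleted RNA and not from a small RNA fraction, so the row counts reads of the locus, and mature miRNA was not measured separately. The mature miRNAs encoded there are shown because this row had the largest fold of the named genes, with seeds (bases 2 to 8) in capitals, as listed in RefSeq on build GRCr8:
rno-miR-675-5p: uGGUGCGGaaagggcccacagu
rno-miR-675-3p: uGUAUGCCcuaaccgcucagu
Sult1b1, a sulfotransferase, at 71.4, 49.3 and 48.9 CPM against 0.0518, 0.403 and 0.166 CPM, and Mmp3, a matrix-degrading protease of stromal cells, at 101, 56.9 and 62.3 CPM against 0.207, 0.761 and 0.222 CPM, were close to their aCM level in the neonatal cells too (0.165 and 0.203 CPM on average). The remaining genes among the 12 with the largest rise were 5 globin rows, the cysteine protease inhibitors Stfa2 and Stfa2l3, and the lipoxygenase Alox15.

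**Figure D2:**
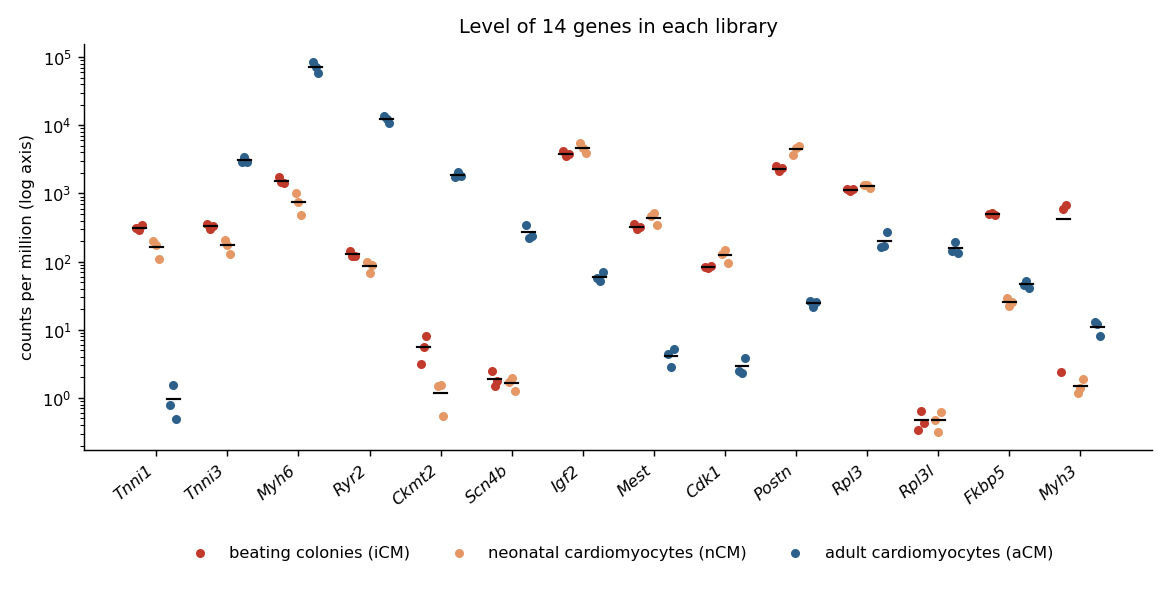
Level of 14 genes in CPM on a log axis, with 1 point per library and a black bar at the mean of the 3 libraries. Tnni1, Igf2, Mest, Cdk1 and Postn lie higher in iCM and nCM than in aCM, Fkbp5 is high in iCM alone (475 to 508 CPM against 41.4 to 51.4 in aCM), and Myh3 is low in 1 of the 3 iCM libraries (2.38 CPM).

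Most genes of the sarcomere were lower in iCM. All 18 tested genes of the Z-disc and costamere, which anchor the filaments, fell (median log2 -2.14), as did 12 of 13 genes of the thick filament (median -2.60) and 11 of 16 of the thin filament (median -2.19). The median over all genes tested was 0.00. Cmya5, which sits at the costamere and near the junctional calcium stores, stood at 22.5, 20.8 and 19.9 CPM in iCM against 3138, 3736 and 3249 CPM in aCM. Myom2, the M-band protein myomesin 2, stood at 23.2, 26.8 and 33 CPM against 5399, 5265 and 4607 CPM. Neither gene's groups came near each other, and the differences were -7.33 ± 0.33 and -7.52 ± 0.50 (log2, edgeR adjusted p = 1.82e-09 and 3.73e-08). In bulk libraries, fewer cells of a type and less RNA per cell cannot be told apart.

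Myh6, the alpha myosin heavy chain that predominates in the adult rat ventricle, stood at 1737, 1456 and 1422 CPM in iCM and in aCM at 83460, 72680 and 59360 CPM. It was the most abundant gene in aCM, where it took 6.26% of all counts on average, against 0.163% in iCM. The difference was 46.7-fold (-5.54 ± 1.06, edgeR adjusted p = 0.0005). Its error is from the fit over 12 libraries, which held the stem cells at 28.8, 2.97 and 0.296 CPM. It is not the spread of iCM and aCM alone. Xirp2, an actin-binding protein of the intercalated disc, fell by 5.92 ± 0.27. Ttn and Neb were not analysed here. A few members went the other way. Besides Tnni1, they were the actin Acta1 (0.95 ± 0.31), the tropomyosins Tpm2 (1.49 ± 0.25) and Tpm3 (1.88 ± 0.21), the slow skeletal troponin T Tnnt1 (2.51 ± 0.45, at 1.34 to 3.63 CPM in iCM) and the atrial and fetal light chain Myl4 (1.25 ± 0.39, adjusted p = 0.0552 without aCM replicate 2). Most of these are forms known from the fetal heart or from skeletal muscle. Tpm3 is not limited to muscle here, at 501, 678 and 730 CPM in the undifferentiated stem cells against 304, 309 and 315 CPM in iCM. The list of fetal-type and stress genes as a whole was mixed, with 5 of 14 higher and 7 lower in iCM (median -0.43). Over all genes tested 33% were higher and 30.1% lower. The natriuretic peptide genes of that list fell, with Nppa at 120, 95 and 103 CPM in iCM against 1097, 442 and 810 CPM in aCM. Nppb stood at 22.1, 17 and 19.1 CPM against 208, 143 and 165 CPM.

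The balance of isoforms was read within each library as the ratio of counts of the adult form to the earlier form. Counts are not corrected for transcript length, so only the shift between groups is compared. In 18 of 19 pairs the 3 aCM ratios all lay above the 3 iCM ratios. The other pair, Cdkn2c over Ccnd2, sets a cell cycle inhibitor over a cyclin and is not a pair of isoforms. The widest shift was in troponin I. Tnni3 over Tnni1 was 1.14, 1.01 and 0.986 in iCM, 3573, 2174 and 5446 in aCM, and 1.04, 1.01 and 1.18 in nCM. The troponin ratios of colonies and neonatal cells were thus close to each other and far below the adult ratio, which was 3338-fold that of iCM. Myh6 over Myh7, the alpha over the beta myosin heavy chain, was 1.56, 1.42 and 1.38 in iCM and 41.9, 9.3 and 22.3 in aCM. In aCM the 3 ratios spread widely, and Myh7 itself stood at 1992, 7814 and 2662 CPM there, above all 3 iCM libraries at 1116, 1026 and 1030 CPM. Its fall of 1.98 ± 0.55 did not pass without aCM replicate 2 (-1.12, edgeR adjusted p = 0.0574). Actc1 over Acta1, the cardiac over the skeletal actin, was 2.3 to 2.93 in iCM and 22.1 to 37.2 in aCM.

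Pairs from metabolism shifted in the same way. Pgam2 over Pgam1, the muscle over the brain form of phosphoglycerate mutase, was 0.0754, 0.0716 and 0.083 in iCM against 2.35, 2.45 and 2.31 in aCM. Slc2a4 over Slc2a1, the insulin-regulated over the basal glucose transporter, was 0.644, 0.95 and 0.871 against 23.9, 14.9 and 23.9. Here the colonies lay above the neonatal cells, whose ratios were 0.116, 0.124 and 0.103. Cox6a2 over Cox6a1 and Cox8b over Cox8a, heart and muscle forms over ubiquitous forms of cytochrome c oxidase subunits, were 19.6-fold and 17.2-fold higher in aCM. The smallest shift was Myl2 over Myl7, the ventricular over the atrial regulatory light chain, at 4.91 to 5.07 in iCM and 5.18 to 11.1 in aCM. Cdkn2c over Ccnd2, the pair that is not one of isoforms, was higher in iCM (0.568 to 0.959) than in aCM (0.0282 to 0.0462).

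**Figure D3:**
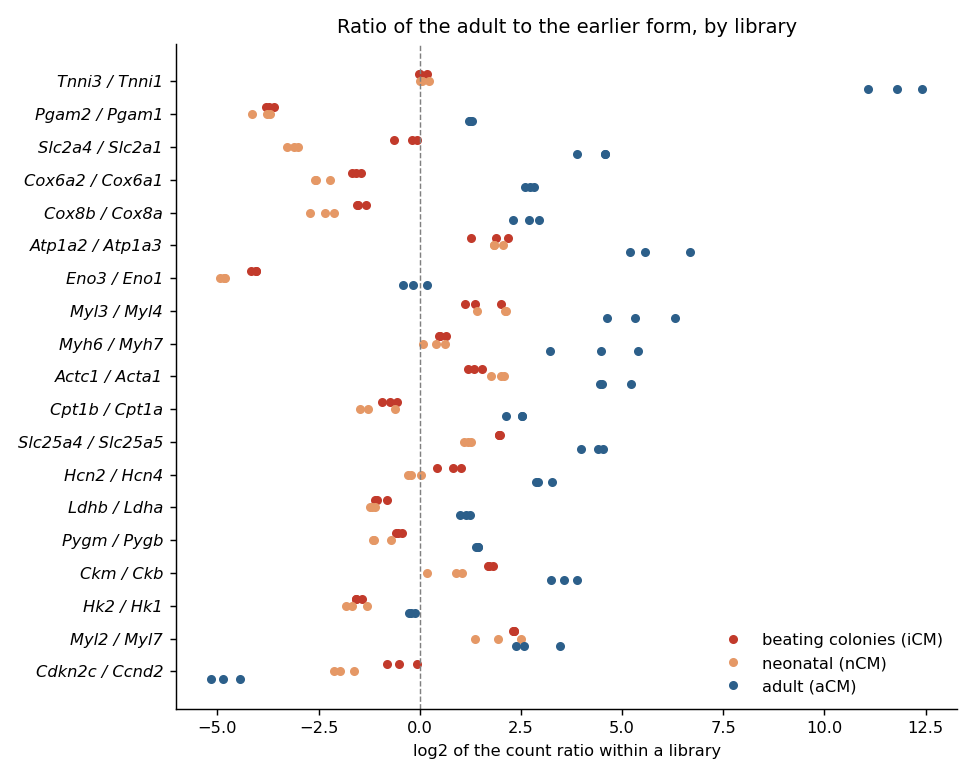
Log2 of the count ratio in each library for 19 pairs, ordered by the difference between aCM and iCM. The ratio is that of the adult over the earlier form, except for Cdkn2c over Ccnd2, which are not isoforms. In 18 pairs the aCM points lie to the right of the iCM points, with the widest gap for Tnni3 over Tnni1 (11.70 on the log2 scale), and in the Cdkn2c and Ccnd2 pair they lie to the left.

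Genes of calcium cycling and electrical activity were mostly lower in iCM. Of 22 tested genes of calcium handling, 16 fell and 3 rose (median -2.10), and of 28 voltage-gated and pacemaker channels, 24 fell and 1 rose (median -3.77). Among all genes tested, 30.1% fell and 33% rose. Ryr2, the channel that releases calcium from the sarcoplasmic reticulum, stood at 145, 122 and 121 CPM in iCM against 13620, 12240 and 10620 CPM in aCM. Atp2a2, the pump that takes the calcium back (SERCA2), stood at 594, 608 and 631 CPM against 30740, 27310 and 23950 CPM. The release channel was 94.1-fold lower and the pump 44.7-fold lower in iCM, with no overlap between groups (log2 -6.56 ± 0.64 and -5.48 ± 0.25, edgeR adjusted p = 1.24e-06 and 1.77e-09). Hrc, a calcium-binding protein of the same store, fell by 7.69 ± 0.32, and its buffer Casq2 by 4.50 ± 0.22. Slc8a1, the sodium-calcium exchanger of the cell surface, fell only by 1.29 ± 0.20. The inositol trisphosphate receptor Itpr1, a release channel that many cell types use, rose by 1.00 ± 0.15, and Bin1, a membrane-shaping protein, by 2.07 ± 0.20.

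Among the channels, Scn4b, an auxiliary subunit of sodium channels, stood at 2.45, 1.48 and 1.79 CPM in iCM against 344, 226 and 238 CPM in aCM. Kcnd2, which carries the transient outward current of rodent heart, stood at 0.149, 0.427 and 0.428 CPM against 56, 41.4 and 39.7 CPM. The groups were far apart for both, with falls of 7.14 ± 0.27 and 7.07 ± 0.35 (log2, edgeR adjusted p = 5.93e-10 and 3.51e-09). Kcnj2, the inward rectifier that holds the resting potential, fell by 3.67 ± 0.23, and Cacna1c is the L-type calcium channel (-4.78 ± 0.23). Pacemaker channels were measured as well. Hcn4 stood at 3.36, 2.7 and 2.77 CPM in iCM and in aCM at 14.3, 13.3 and 12.3 CPM, and Hcn2 was lower as well (-4.45 ± 0.41). The T-type channels Cacna1g and Cacna1h did not pass the test (-0.14 ± 0.22 and -0.50 ± 0.33, adjusted p = 0.607 and 0.204). At the cell contacts, 11 of 13 genes of the intercalated disc fell (median -3.13), led by the desmosome protein Dsp (-4.46 ± 0.23), and Gja1, the main gap junction protein of the ventricle, fell by 3.10 ± 0.14.

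Transcription factors of heart development were mostly near their adult level or lower. Of 23 tested, 13 did not pass the test, 8 fell and 2 rose (median -0.25). The share that fell was near the 30.1% over all genes tested, and the share that rose was below the 33%. Gata4, a zinc finger factor of the cardiac lineage, stood at 94.5, 86.3 and 82.7 CPM in iCM and in aCM at 87.5, 86.4 and 76.3 CPM (0.07 ± 0.16). Tbx20 and Hand2 gave -0.04 ± 0.18 and 0.00 ± 0.18. The groups overlapped for all 3 of these genes. The largest falls were those of Myocd, a coactivator of muscle genes (-2.41 ± 0.19), Prox1 (-2.23 ± 0.19) and Tbx5 (-2.06 ± 0.14), and Isl1, a factor of the second heart field, rose from 0.259 to 0.332 CPM to 0.699 to 1.08 CPM. The count of risen factors ranged from 1 with the 1 CPM filter to 5 under total counts. In the list of nuclear receptors and metabolic regulators, 13 of 19 fell. They included Ppara, the receptor that switches on fatty acid use (-4.04 ± 0.24), its coactivator Ppargc1a (-3.09 ± 0.20) and Esrrg (-3.13 ± 0.16).

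To set these genes against the amount of cardiac transcript in each library, counts were divided by those of Tnnt2 in the same library, a description added after the values were seen. Tnnt2 itself fell by 2.78 ± 0.36, so a gene that fell by less than that stands higher in iCM after the division. Other cardiac genes fell by more (Myh6 by 5.54, Ryr2 by 6.56) or by less (Myh7 by 1.98). The splits below therefore hold for this divisor only, and no other was used. The median over all genes tested was 0.0 before it, and the share of all genes above in iCM after it was not computed. On that scale the thick filament list was divided, with 6 of 13 genes higher in aCM and 6 higher in iCM without overlap (median of aCM minus iCM -0.19, log2). Of the 28 channels, 17 were above in aCM (median 0.98) and 8 in iCM, and of the 13 intercalated disc genes 8 were above in aCM and 4 in iCM (median 0.35). The direction was the other one for more of the lists that fell, as their medians had fallen by less than Tnnt2. In calcium handling 11 of 22 genes were above in iCM and 7 in aCM, in the thin filament 10 and 4 of 15, and in the Z-disc list 8 and 6 of 18. In fatty acid oxidation 18 of 31 were above in iCM and 7 in aCM, in the citric acid cycle 22 and 3 of 27, and in complex I 32 and 1 of 35. Of the cardiac transcription factors, 22 of 23 were above in iCM (median of iCM minus aCM 2.53). This was not particular to them, since all 18 endothelial genes (median 3.18) and all 22 macrophage and leukocyte genes (median 2.87) were above in iCM too. Ratios within a library show unequal change and not which gene moved.

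**Figure D4:**
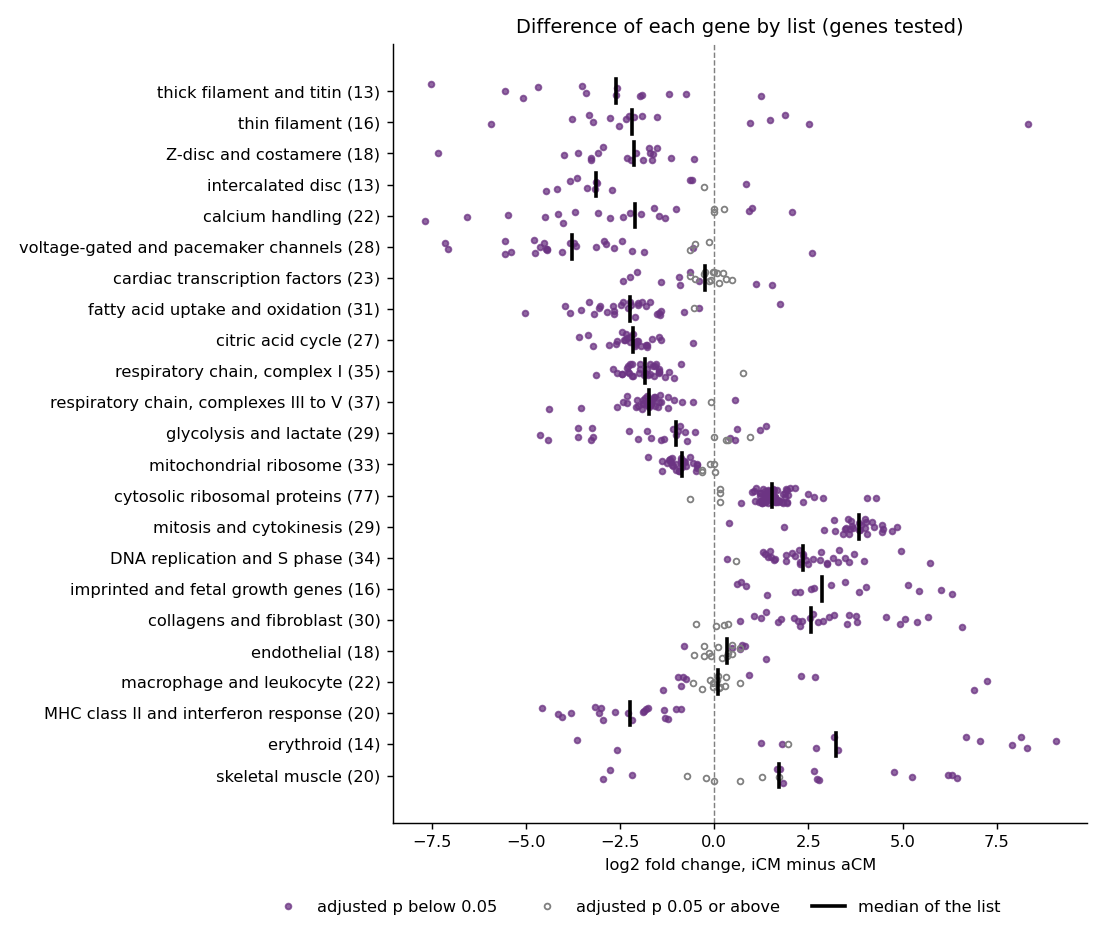
Log2 fold change, iCM minus aCM, of every tested gene of 23 lists, with filled points for an adjusted p below 0.05 (edgeR) and a black bar at the median of the list. Contractile, calcium, channel and mitochondrial lists have medians to the left of 0, and cytosolic ribosomal, cell cycle, imprinted and matrix lists to the right.

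Transcripts of energy metabolism were lower in iCM from fuel uptake to ATP synthesis. Of 31 tested genes of fatty acid uptake and oxidation, 29 fell and 1 rose (median -2.25), where 30.1% and 33% of all genes did. All 27 genes of the citric acid cycle list fell (median -2.16), as did 34 of 35 of complex I (median -1.85), 35 of 37 of complexes III to V (median -1.74) and all 16 of ketone and branched-chain amino acid use (median -2.18). Lpl, the lipase that frees fatty acids from lipoproteins, stood at 185, 164 and 176 CPM in iCM against 6048, 5378 and 5745 CPM in aCM. Oxct1, which lets the heart burn ketones, stood at 132, 144 and 152 CPM against 2407, 2623 and 2588 CPM. Both genes were separated widely, with falls of 5.03 ± 0.31 and 4.16 ± 0.18 (log2, edgeR adjusted p = 2.01e-08 and 1.66e-09). The transporter Cd36 did not pass (-0.53 ± 0.41, edgeR adjusted p = 0.281). It stood at 1477, 1177 and 1337 CPM against 1902, 1715 and 2132 CPM, lower in iCM without overlap. Its error is from the fit over 12 libraries, which held the stem cells at 1.2, 5.44 and 1.21 CPM. The missing call thus does not show that Cd36 was unchanged. Myoglobin, Mb, which stores oxygen, stood at 703, 604 and 660 CPM in iCM and in aCM at 8163, 8863 and 8741 CPM.

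The falls were not uniform. Of 33 genes of the mitochondrial ribosome, 28 fell, 3 of them beyond 2-fold (median -0.87). In the glycolysis list, 20 of 29 genes fell and 5 rose, where 30.1% and 33% of all genes did. The transporter Slc2a4 (-4.62 ± 0.19) and the muscle forms Pgam2 (-4.41 ± 0.20) and Pygm (-3.63 ± 0.25) were lowest. Aldoc (1.36 ± 0.26) and the lactate exporter Slc16a3 (1.21 ± 0.21) were highest. Eno1 and Pfkl, forms found in most tissues, did not pass (0.38 ± 0.19 and 0.31 ± 0.13, adjusted p = 0.0983 and 0.0596).

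Transcripts of dividing cells were higher in iCM. All 29 tested genes of mitosis and cytokinesis rose (median 3.85), and 33 of 34 genes of DNA replication and S phase rose (median 2.36). Among all genes tested, 33% rose and 30.1% fell. Cdk1, the kinase that drives entry into mitosis, stood at 83.3, 79.9 and 85.5 CPM in iCM and in aCM at 2.48, 2.33 and 3.88 CPM. Birc5, survivin, which acts in chromosome segregation, stood at 19, 18.5 and 22.5 CPM against 0.57, 0.582 and 1.16 CPM. The 3 iCM libraries lay close together for both genes and far above aCM (4.85 ± 0.24 and 4.71 ± 0.25, edgeR adjusted p = 2.96e-09 and 5.57e-09). Rrm2, which makes deoxynucleotides, rose by 4.97 ± 0.25, and its near copy RRM2, which may share reads with it, by 5.73 ± 0.32. Against the neonatal cells 0 of the 29 mitosis genes were higher in iCM and 3 were lower (median -0.28). In that comparison 31.4% of all genes tested were called in either direction. In the list of D cyclins and cell cycle inhibitors 13 of 18 rose and 3 fell. Those that rose included the inhibitors Cdkn1c (3.84 ± 0.31) and Cdkn2c (3.02 ± 0.24), while Ccng1 fell by 1.64 ± 0.24. Which cells of the colonies carry these transcripts was not measured in bulk RNA.

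Promoters of these genes are shown because the genes rose together. Of the 29 mitosis symbols, 24 had a RefSeq promoter window (250 bases before to 50 after the start, build GRCr8), and 17 of them, 70.8%, held TTTGAA, the core of the cell cycle homology region, on either strand, against 18.1% of all 27457 windows. The CCAAT box, CCAAT on either strand, was in 79.2% of them and in 65.4% of the S phase windows described next, against 37.7% of all windows. In the S phase list 26 of 33 symbols had a window, 10 of these, 38.5%, held GCGGGAA, a core of E2F sites, against 4.47% of all windows, and 1 held TTTGAA. The 3 mitosis genes with the largest rise whose windows hold both motifs were Cdk1 (chr20:19265043-19265342, plus strand), Birc5 (chr10:103571896-103572195, plus strand) and Kif23, a mitotic kinesin (chr8:71320535-71320834, minus strand). In these the capitals mark TTTGAA and CCAAT on either strand:
Cdk1: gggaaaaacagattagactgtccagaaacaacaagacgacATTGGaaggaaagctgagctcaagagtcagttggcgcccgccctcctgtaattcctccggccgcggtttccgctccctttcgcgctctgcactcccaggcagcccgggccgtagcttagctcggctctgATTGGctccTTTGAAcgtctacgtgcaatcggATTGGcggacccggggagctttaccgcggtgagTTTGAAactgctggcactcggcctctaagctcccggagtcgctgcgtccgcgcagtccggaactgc
Birc5: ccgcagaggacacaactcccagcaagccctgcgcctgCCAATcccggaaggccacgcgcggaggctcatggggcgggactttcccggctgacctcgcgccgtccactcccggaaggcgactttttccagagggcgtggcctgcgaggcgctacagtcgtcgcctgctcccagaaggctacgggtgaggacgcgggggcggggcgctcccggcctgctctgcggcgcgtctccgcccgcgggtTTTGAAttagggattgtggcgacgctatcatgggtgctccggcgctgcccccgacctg
Kif23: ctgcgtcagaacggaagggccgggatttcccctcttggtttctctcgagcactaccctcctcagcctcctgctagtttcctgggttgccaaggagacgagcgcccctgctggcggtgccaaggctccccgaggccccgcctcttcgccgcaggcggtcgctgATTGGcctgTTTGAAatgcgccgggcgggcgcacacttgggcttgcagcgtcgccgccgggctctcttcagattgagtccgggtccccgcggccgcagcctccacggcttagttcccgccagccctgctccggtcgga
The 2 S phase genes with the largest rise whose windows hold GCGGGAA were Mcm3 (chr9:30733697-30733996, minus strand) and Mcm5 (chr19:13488563-13488862, plus strand), subunits of the replicative helicase, with that motif in capitals on either strand:
Mcm3: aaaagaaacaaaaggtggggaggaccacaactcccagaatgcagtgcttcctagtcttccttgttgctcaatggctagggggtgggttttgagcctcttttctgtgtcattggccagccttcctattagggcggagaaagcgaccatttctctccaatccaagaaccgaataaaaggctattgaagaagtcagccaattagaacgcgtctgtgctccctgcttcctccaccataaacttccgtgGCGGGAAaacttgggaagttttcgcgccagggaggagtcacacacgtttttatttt
Mcm5: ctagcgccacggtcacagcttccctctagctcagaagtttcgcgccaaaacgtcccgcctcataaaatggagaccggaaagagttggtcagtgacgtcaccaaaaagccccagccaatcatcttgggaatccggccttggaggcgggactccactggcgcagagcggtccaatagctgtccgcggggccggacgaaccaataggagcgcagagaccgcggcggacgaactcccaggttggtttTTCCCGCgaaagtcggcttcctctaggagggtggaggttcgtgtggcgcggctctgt
A match describes these letters and does not show that a factor binds. Mcm3 stood at 71.1, 65.3 and 71.5 CPM in iCM against 5.38, 5.06 and 8.53 CPM in aCM, and Mcm5 at 59.5, 55.9 and 54.7 CPM against 7.97, 5.6 and 7.7 CPM.

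Growth genes of the fetus and the translation machinery rose with the cell cycle genes. All 16 tested imprinted and fetal growth genes rose (median 2.87), where 33% of all genes did. Igf2, the fetal growth factor, stood at 4131, 3565 and 3809 CPM in iCM and in aCM at 57.2, 52 and 69.2 CPM, a 64.5-fold difference (6.01 ± 0.92, edgeR adjusted p = 7.43e-05). Mest, an imprinted gene of mesoderm, rose by 6.32 ± 0.49, and the mRNA-binding proteins Igf2bp1 and Igf2bp2 by 5.14 ± 0.77 and 4.02 ± 0.12. H19 and Meg3 were not analysed here. Of 77 tested rows of cytosolic ribosomal proteins, 73 rose and 0 fell (median 1.52), and the 4 that did not pass were RPL21, RPL37, Rpl32 and Rpl34 rows. Most of these genes have processed copies, and rows of one symbol may share reads. Rpl3, the general form of the ribosomal protein, rose by 2.49 ± 0.19 while its muscle form Rpl3l fell. Eef1a1, the elongation factor of translation, was the fifth most abundant gene in iCM at 0.921% of counts, against 0.124% in aCM.

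The iCM libraries also carried much transcript of connective tissue. Of 30 collagen and fibroblast genes, 26 rose and 0 fell (median 2.57), where 33% and 30.1% of all genes did. Their summed level was 54300 to 56670 CPM in iCM against 8018 to 13540 CPM in aCM. Postn, periostin, a matrix protein of activated fibroblasts and of the fetal heart, stood at 2518, 2102 and 2337 CPM in iCM and in aCM at 26.1, 21.6 and 25.9 CPM. Fn1, fibronectin, stood at 4891, 4781 and 4798 CPM against 191, 131 and 149 CPM. Both were far apart between the groups (6.56 ± 0.49 and 4.94 ± 0.45, edgeR adjusted p = 1.08e-07 and 6.1e-07). The fibroblast lineage markers Pdgfra and Tcf21 rose less, by 1.36 ± 0.20 and 1.06 ± 0.20, and Dcn, Lum, Ddr2 and Col15a1 did not pass. Levels of these markers moved opposite to those of the contractile and mitochondrial lists, and their part in those falls was not tested.

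**Figure D5:**
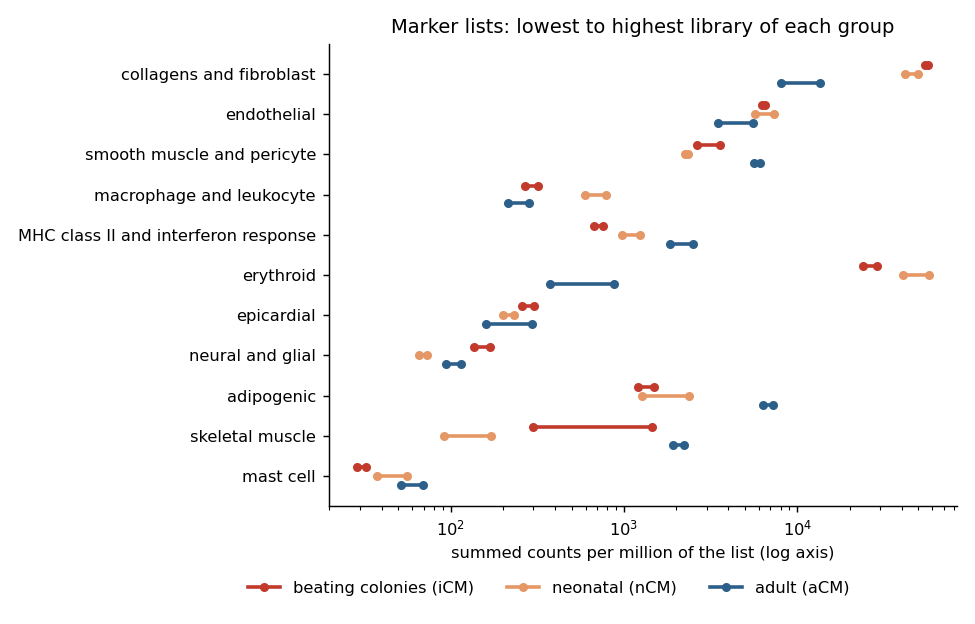
Summed CPM of 11 marker lists on a log axis, with the lowest and highest of the 3 libraries of each group joined by a line. The collagen list stands at 54300 to 56670 CPM in iCM against 8018 to 13540 in aCM, the erythroid list at 23790 to 28690 against 376 to 876, and the skeletal list spans 298 to 1446 CPM over the iCM libraries.

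Markers of other cell types were present in both groups, and no tested gene of these lists was at 0 counts in all libraries of either group. Of 18 endothelial genes, 12 did not pass the test, 5 rose and 1 fell, and the summed level was 6220 to 6542 CPM in iCM and 3506 to 5571 CPM in aCM. Cdh5, the cadherin that defines endothelium, stood at 392, 343 and 348 CPM in iCM and in aCM at 261, 198 and 320 CPM. The number of risen endothelial genes ranged with the setting, from 3 without aCM replicate 1 or 2 to 9 under total counts. Of 22 macrophage and leukocyte genes, 12 did not pass, 5 rose and 5 fell, and Ptprc, the common leukocyte antigen, stood at 13.4 to 17.4 CPM in iCM and 14.8 to 16.4 CPM in aCM. In the endothelial and the leukocyte list, the shares that rose and fell were below the 33% and 30.1% over all genes tested. The neutrophil genes S100a8 and S100a9 rose by 7.24 ± 0.59 and 6.90 ± 0.50, and the macrophage genes Cd163, a scavenger receptor, and Csf1r, a growth factor receptor, fell by 1.35 ± 0.32 and 0.96 ± 0.29. All 20 genes of MHC class II and the interferon response fell (median -2.23), with Cd74, the invariant chain, at 17.6, 13.1 and 16.1 CPM in iCM against 246, 275 and 304 CPM in aCM. Of the smooth muscle and pericyte genes, 7 of 14 fell and 3 rose, with Myh11, smooth muscle myosin, lowest (-3.38 ± 0.16).

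Red blood cell transcripts were abundant in iCM. Of 14 erythroid rows, 11 rose and 2 fell (median 3.24), or 13 and 1 without aCM replicate 2. The shares over all genes tested were 33% and 30.1%. Hba2, an alpha-globin, stood at 10030, 8631 and 9182 CPM in iCM, 26.8, 7.07 and 18.1 CPM in aCM and 16060 ± 3612 CPM in nCM (SD, n = 3). Alas2, the erythroid enzyme of heme synthesis, stood at 164, 140 and 147 CPM in iCM against 2.23, 0.761 and 1.44 CPM in aCM, and Ahsp, the alpha-globin chaperone, at 27.7, 23.1 and 23.8 CPM against 0.466, 0 and 0.111 CPM. Alas2 rose by 6.69 ± 0.34 and Ahsp by 7.04 ± 0.66 (edgeR adjusted p = 3.8e-09 and 8.3e-07). The 4 globin rows among the 15 most abundant genes of iCM took 0.98%, 0.946%, 0.902% and 0.702% of its counts. In the undifferentiated stem cell libraries Hba2 stood at 0.0479, 47.7 and 0.0887 CPM. The globin genes are near copies and their rows may share reads. The share of red cells and their precursors in the colonies was not measured, and the part of such cells in the other results was not tested.

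Skeletal muscle genes divided the iCM libraries. Myog, the factor that starts the fusion of myoblasts into myotubes, stood at 0.298, 45.6 and 52 CPM in iCM replicates 1, 2 and 3 and at 0.134 to 0.57 CPM in aCM. Myh3, the embryonic skeletal myosin, stood at 2.38, 584 and 682 CPM against 8.03 to 12.9 CPM. Replicate 1 thus lay within or below the adult range for these genes, while replicates 2 and 3 lay far above it. The fast skeletal troponins Tnni2 (0.596, 26.6 and 36.8 CPM) and Tnnc2 (0.34, 27.2 and 39 CPM) were likewise lowest in replicate 1, as was Myod1, the factor that sets the skeletal fate, at 1.11, 11.7 and 8.34 CPM. Of the 20 tested skeletal genes, 11 rose and 3 fell (median 1.72), where 33% and 30.1% of all genes did. The summed level of the list was nevertheless lower in iCM (298 to 1446 CPM) than in aCM (1913 to 2233 CPM), where Ckm, a kinase also of heart muscle, was higher (-2.96). The count of those that rose was 14 without iCM replicate 1, 9 without any other of the 6 libraries, 7 with a replicate block, and 6 where at least 1 CPM was required in every library of a group. Against nCM, 16 of the 20 were higher in iCM, where 31.4% of all genes tested were called in either direction. Thy1, a surface protein of fibroblasts and other stromal cells, at 16, 164 and 140 CPM, and the collagen Col12a1, at 673, 2870 and 2685 CPM, split the libraries in the same way. The main cardiac genes did not, with Tnnt2 at 838, 726 and 762 CPM.

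The glucocorticoid and clock list and the antioxidant list were mixed. Of 22 tested genes of the former 7 rose and 11 fell (median -0.39), and of 23 antioxidant genes 9 rose and 7 fell (median 0.19). These numbers lie near the 33% higher and 30.1% lower over all genes, except for the falls in the first list, and the genes named next do not stand for either list. In iCM minus nCM, 5412 genes passed, 31.4% of those tested, and 3494 without iCM replicate 2 or 3570 without iCM replicate 3. That comparison and the one with aCM share the iCM libraries, so their values are given side by side. Fkbp5, a cochaperone of the glucocorticoid receptor and itself a target of glucocorticoids, stood at 491, 508 and 475 CPM in iCM, at 45.5, 51.4 and 41.4 CPM in aCM and at 25.5 CPM on average in nCM. Tsc22d3 (GILZ), another glucocorticoid target, stood at 701, 762 and 747 CPM in iCM against 138, 168 and 176 CPM in aCM. The 3 iCM libraries were close together and above both other groups (iCM minus aCM 3.41 ± 0.13 and 2.20 ± 0.20, iCM minus nCM 4.27 and 2.76, all with edgeR adjusted p of 6.8e-07 or less). Sgk1 and Mt2A, 2 more genes that respond to glucocorticoids, rose by 2.00 ± 0.22 and 2.45 ± 0.26. Zbtb16 did not pass against aCM (-0.47 ± 0.44) but was higher than in nCM by 3.10. Nqo1, an NRF2 target that detoxifies quinones, stood at 216, 224 and 226 CPM in iCM and in aCM at 21.1, 19.2 and 22.3 CPM, and the peroxiredoxin Prdx6 rose by 1.67 ± 0.13. No source used here gives the composition of the culture medium.

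Clock genes differed as well. Dbp, a clock output factor, stood at 8.1, 8.06 and 9.2 CPM in iCM against 160, 157 and 163 CPM in aCM, and Arntl, the BMAL1 subunit of the clock, at 32.2, 33.7 and 33.5 CPM against 5.13, 3.76 and 6.32 CPM. Dbp, Tef, Hlf, Nr1d1 and Nr1d2 fell, by 4.25 ± 0.17 for Dbp, while Arntl rose by 2.72 ± 0.17 (edgeR adjusted p = 7.2e-10 and 2.33e-08 for Dbp and Arntl). No source used here gives the time of day at which cells were collected, and time of day and group cannot be told apart.

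The neonatal cells give a second point of reference. The comparisons of iCM and of nCM with aCM share the aCM libraries, so their medians are set side by side without a test. The mix of cells differed too. Erythroid transcript summed to 40940 to 57380 CPM in nCM against 23790 to 28690 in iCM, and leukocyte transcript to 594 to 792 against 270 to 319. The collagen list was lower in nCM, at 41590 to 49510 against 54300 to 56670. Fewer muscle cells and less cardiac RNA per cell in nCM cannot be told apart. Relative to aCM, the thick filament list had a median of -2.60 in iCM and -3.53 in nCM, the Z-disc list -2.14 and -3.31, and calcium handling -2.10 and -3.27. The direct test of iCM minus nCM called 6 of 13, 13 of 18 and 15 of 22 genes of these lists higher in iCM and 0, 1 and 0 lower. Over all genes tested 31.4% were called in that test in either direction, and the split by direction is not given here. Lmod2, which sets thin filament length, was higher than in nCM by 1.13 and lower than in aCM by 3.78 ± 0.21. For fatty acid oxidation the medians relative to aCM were -2.25 and -2.71, and 17 of 31 genes were higher in iCM than in nCM, the carnitine palmitoyltransferase Cpt1b by 1.23. Slc2a4 was higher than in nCM by 3.17. Plin4, a lipid droplet protein, at 109, 76.2 and 74.9 CPM in iCM, was higher than in nCM by 5.37 and lower than in aCM, at 371, 385 and 297 CPM, by 2.02 ± 0.21. Leukocyte genes went the other way, 20 of 22 being lower in iCM than in nCM.

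Kit, the receptor in the title of the study, stood at 19.1, 17.4 and 17.3 CPM in iCM and in aCM at 33, 26.7 and 40.4 CPM, without overlap (-0.89 ± 0.16, edgeR adjusted p = 0.000234).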

How the data were processed

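The authors deposited estimated counts (expected counts that need not be whole) per Ensembl rat gene and, beside them, normalized log2 values. The log2 values, as deposited by the authors, were used only to read their library factors. Per the labels' protocols, ribosomal RNA was depleted and libraries were made from total RNA with random primers. DESeq is named in the submitters' processing notes. No source used here gives the aligner, counter, genome build or use of strand, so overlapping genes and near copies are uncertain.

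Counts were rounded. The filter was filterByExpr of edgeR (minimum count 10) and removed 9034 genes, 6399 of them without a count. Libraries were scaled by TMM (factors 1.04 to 1.06 in iCM and 0.861 to 0.880 in aCM). All 12 libraries of stem cells, iCM, nCM and aCM entered 1 fit, and contrasts were tested two-sided with edgeR 4.0.16 (quasi-likelihood, and glmTreat against 2-fold) in R 4.3.3 with limma 3.58.1, Benjamini-Hochberg adjusted over genes. Errors of log2 fold changes are SE. They rest on 1 estimate of spread per gene over the 12 libraries, stem cells included, and not on iCM and aCM alone. Levels are TMM-scaled CPM computed here. DESeq2 1.42.0, other scalings, filters and left-out libraries were alternatives, and the authors' factors were added after seeing the data.

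The comparison, the 49 gene lists and the 19 pairs, of which all but Cdkn2c and Ccnd2 are isoform pairs, were chosen with earlier results of these data known. Named genes are the 12 with the largest rise and the 12 with the largest fall (beyond 2-fold, without overlap, at least 10 CPM in the higher group), up to 3 highest, 3 lowest and 2 uncalled genes of each list, the isoform pairs, the 15 most abundant genes per group, and Kit. A few genes that meet the rule are not reported here. Genes named outside this rule were chosen after their values were seen. These are Myh3, Casq2, Slc8a1, Kcnj2, Cacna1c, Gja1, Gata4, Tbx20, Hand2, Ppargc1a, Kif23, Mcm3, Mcm5, Igf2bp1, Igf2bp2, Rpl3, Rpl32, Pdgfra, Tcf21, Lum, Ddr2, Cdh5, Ptprc, Alas2, Ahsp, Myod1, Tsc22d3, Sgk1, Tef, Nr1d1, Nr1d2 and Mir208b. No pair of replicates was as close as sampling noise allows (lowest median chi-square per gene 1.72, against 0.455 by chance). Intervals and floors of 3 counts cover counting error only.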

Additional observations from a re-analysis of the deposited data

How the results depend on the processing

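Of the counts over all genes in iCM minus aCM, each stayed within 1.5 times its value under every alternative run for it, 15 for the counts called and 14, without DESeq2, for those beyond 2-fold. Calls numbered 10888 in all, 10736 with DESeq2, 10825 with RLE factors, 10770 with the authors' library factors, and 9831 to 10848 when 1 library was left out. Beyond 2-fold the range on leaving out 1 library was 3456 to 4073. In iCM minus nCM, calls ranged from 3494 to 5079 on leaving out 1 library, against 5412, and were lowest without iCM replicate 2 or 3. The cause was not tested. Same-numbered libraries of iCM and aCM showed little joint deviation (correlations 0.0175, 0.00537 and 0.0737), and differently numbered ones gave -0.0728 to 0.05. Deviations from means of 3 libraries cannot exclude a shared batch or day, so whether the numbers pair the libraries is not known. With the replicate block, 11192 genes were called in iCM minus aCM and 5653 in iCM minus nCM, and 7 skeletal muscle genes rose. Of 337 named genes, 18 lost their call, 46 gained one and 0 reversed under at least 1 alternative. Of 98 list counts, 21 moved by over 1.5 times. Myh7 fell by 1.98 but by 1.12 without aCM replicate 2 (edgeR adjusted p = 0.0574). The smaller depth of aCM limits the folds of genes near 0 there.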

Other observations

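Signalling genes outside the lists described above moved in part. Over all genes tested 33% rose and 30.1% fell, which is the background for the counts that follow. Of 27 genes of TGF-beta and BMP signalling, 19 rose and 3 fell (median log2 1.23, iCM minus aCM). Fst, follistatin, which binds activins, stood at 63.8, 53.2 and 54.1 CPM in iCM and in aCM at 1.55, 1.93 and 1.83 CPM (32.1-fold, edgeR adjusted p = 1.17e-07). Bmp10, a ligand of the atrial and trabecular myocardium, fell by 4.17 ± 0.43. Of 21 inflammatory cytokine genes, 11 rose and 0 fell, and of 24 immediate early genes 12 rose and 1 fell, with Fosb at 1226, 1066 and 1050 CPM against 277, 295 and 326 CPM. The list of lipid and sterol synthesis held 13 genes that rose and 3 that fell. Acacb, the acetyl-CoA carboxylase that restrains fatty acid entry into mitochondria, was lowest (-5.04 ± 0.18), and Scd, the stearoyl-CoA desaturase, highest (2.10 ± 0.19). Of 15 genes tested as progenitor and stem cell markers, 7 rose and 3 fell. Cd44 rose by 1.81 ± 0.15, and Sall4 fell by 2.79 ± 0.25. In the adipogenic list 5 of 9 genes rose and 3 fell, the latter being Lpl (-5.03 ± 0.31), the lipid droplet gene Plin4 (-2.02 ± 0.21) and the fat cell hormone Lep (-1.11 ± 0.29). Adipoq, Cfd and Retn, products of fat cells, stood at 5.18 to 8.61, 26.1 to 39.6 and 5.83 to 11.5 CPM in iCM, all above aCM, and each was higher than in nCM by 3.28 or more (log2).

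The row Mir208b, a miRNA locus inside Myh7, had 0 counts in all 3 iCM libraries and 134, 138 and 33 counts in aCM, at least 81.6-fold lower in iCM against a floor of 3 counts per library. It was chosen after its value was seen. Myh7 itself stood at 1116, 1026 and 1030 CPM in iCM. As for Mir675, the Mir208b row counts reads of the locus, and mature miRNA was not measured separately. RefSeq on build GRCr8 lists a 3p and a 5p form. The 3p form follows with the seed (bases 2 to 8) in capitals, since the row was empty in one group.
rno-miR-208b-3p: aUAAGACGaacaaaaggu

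Harbi1, Hnrnpul1, Oca2, Stfa3 and Fbxl22, were among the 15 most abundant rows of aCM at 0.578% to 1.98% of counts. Harbi1 stood at 1.98% of counts in aCM and 0.236% in iCM. Reads shared with other genes could not be checked in these files.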
